A study of Rattus norvegicus with 8 samples.

Results

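The mTOR growth control genes are a set of 10 genes: the kinase Mtor, its complex partners Rptor, Rictor and Deptor, the inhibitory TSC proteins Tsc1 and Tsc2, the targets Rps6kb1 and Eif4ebp1, and the stress-induced inhibitors Ddit4 and Sesn2. They were found by matching the RefSeq accession of each array probe to a gene symbol. Of the 10 genes, 8 had a probe, and Rictor and Deptor, with no probe matched by accession, were not analysed here. The 8 genes had 10 probes in all, because Eif4ebp1 and Tsc1 had 2 each, and they stood among 19865 genes tested. Of the 19865, 9925 had a gene symbol and 9940 were accessions without one, each counted as a gene. Shares of all genes given below are over both kinds. The tissue was the right kidney, the one left in place, of 10-week-old males of the inbred rat strain F344/NSlc. The groups were 4 rats after unilateral nephrectomy, which removes the opposite kidney, and 4 rats after a sham operation, with no genetic change or drug in either group. The labels of the nephrectomized rats give day 2 and those of the sham rats day 1, while the series text gives 2 days. The groups may thus also have differed in the time of sampling, and operation and time could then not be told apart.

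mTOR is a protein kinase that works in 2 complexes. In mTORC1, which holds the adaptor Rptor (Raptor), it phosphorylates the S6 kinase Rps6kb1 and the translation repressor Eif4ebp1 and so raises protein synthesis and cell size. In mTORC2, which holds Rictor, it phosphorylates AKT and SGK kinases, and Deptor inhibits both complexes. Amino acids bring mTORC1 to the lysosome, growth factors act through PI3K and AKT to relieve inhibition by the Tsc1 and Tsc2 complex of the small GTPase Rheb, and low energy, hypoxia and other stresses inhibit mTORC1, in part through Ddit4 (REDD1) and Sesn2. In rodents the growth of the kidney left after nephrectomy is known to need mTORC1 activity. That activity is set largely by phosphorylation and by the place of the proteins in the cell, and the arrays measured mRNA alone.

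Ddit4 had the largest difference in mean among the 8 genes, and Castor1, an arginine sensor upstream of mTORC1, was the pathway gene outside the 10 that differed most among those that passed the test. The 250 bases before the start of each are therefore shown, taken from RefSeq with the GRCr8 assembly and written 5′ to 3′ on the gene's own strand, at chr20:28437038-28437287 (minus strand) for Ddit4 and chr14:83309460-83309709 (plus strand) for Castor1. Capitals mark matches to the motifs searched.
Ddit4: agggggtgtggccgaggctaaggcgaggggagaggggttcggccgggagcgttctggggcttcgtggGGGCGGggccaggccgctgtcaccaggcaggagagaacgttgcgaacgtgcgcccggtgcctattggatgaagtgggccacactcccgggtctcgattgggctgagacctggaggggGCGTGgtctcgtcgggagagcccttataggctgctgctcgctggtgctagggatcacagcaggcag
Castor1: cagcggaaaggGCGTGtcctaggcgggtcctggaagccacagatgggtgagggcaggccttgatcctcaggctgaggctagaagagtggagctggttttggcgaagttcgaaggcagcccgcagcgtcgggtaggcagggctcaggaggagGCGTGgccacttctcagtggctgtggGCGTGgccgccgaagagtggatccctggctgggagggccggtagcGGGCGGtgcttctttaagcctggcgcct

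The motifs were searched on both strands, in windows that ran from 250 bases before to 50 after the gene start. They were the E-box CACGTG, the glucocorticoid receptor hexamer AGAACA, the cyclic AMP response element TGACGTCA and the composite C/EBP and ATF element TGATGNAA. The GC box GGGCGG and GCGTG, a form of the hypoxia response core, were also searched. The other form of that core, ACGTG, was not searched, and the Ddit4 sequence shown holds it unmarked. No match overlapped another in either sequence. The Ddit4 window held GCGTG once, with its first base at -66 from the gene start, and GGGCGG once, at -183. The Castor1 window held GCGTG at -239, -99 and -73 and GGGCGG at -28. Neither of these 2 motifs is rare, since 29.7% of 33469 rat promoter windows held GCGTG and 33.1% held GGGCGG. The hexamer AGAACA, present in 20.7% of the windows, was in neither, and neither were CACGTG (6.42%), TGATGNAA (3.98%) and TGACGTCA (1.83%). The table held windows of 7 of the 10 genes, and of those only Rps6kb1 had the AGAACA letters, once, at -185. These are matches of letters, and no binding was measured.

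All levels are log2 of an array spot's background-corrected Cy3 intensity minus the 75th percentile of that array, so that 0 is the brightness of a probe at that percentile. Each rat had its own array, the arrays lay on 2 slides of 4, and rats 1 and 2 of each group shared slide 1 and rats 3 and 4 slide 2. Between 54.8% (sham rat 1) and 65.5% (nephrectomized rat 4) of the probes were well above background, and sham rat 1 stood apart from the other 7 arrays on the second principal component (21.6% of the variance). Markers of proximal tubule, loop, collecting duct, podocyte and endothelial cells were present in every array, while the adrenal enzymes Cyp11b1 and Cyp11b2 and the muscle genes Ckm, Acta1 and Myh1 were never well above background. The third adrenal marker with a probe, Cyp11a1, was well above background in 2 nephrectomized and 2 sham rats and did not pass the filter. The fat cell marker Adipoq was well above background in all 4 rats of each group, and the fat cell marker Lep in none. Adipoq differed by -0.11 (adjusted p = 0.692 by limma), and the part of fat tissue in the results was not tested. The summed linear level of the 7 proximal tubule markers was 513 to 539 in nephrectomized rats and 544 to 564 in sham rats. Slc22a8 had no value in sham rat 2, so the sum of that rat left it out and was too low. The groups did not overlap, although none of the 7 passed the test on its own. The part of this sum in the results below was not tested. In whole tissue, fewer cells of a type and less RNA per cell cannot be told apart. Each label names 1 kidney of 1 rat, and 4 arrays per group limit the precision of every value.

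None of the 8 measured genes was called at an adjusted p under 0.05 in limma, with Benjamini-Hochberg adjustment over all 19865 genes, against a background of 3.59% of all genes called, 2.57% higher and 1.02% lower. Eif4ebp1 and Ddit4 had an unadjusted p under 0.05, 2 of 8 genes where 17.7% of all genes had one. With array weights, an alternative that gives less weight to divergent arrays and called 2157 genes in all, 1 of the 8 was called. The median log2 difference of the 8 genes, nephrectomized minus sham, was 0.03, and the median of its absolute size was 0.06 against 0.11 over all genes. A p above the threshold does not show that a gene's level was equal in the groups, so the 95% interval of each difference is given below.

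The mRNA of the kinase itself lay in nearly the same range in both groups. Mtor, whose probe was spotted 10 times on each array, had log2 levels of -1.17, -1.08, -0.88 and -1.03 in nephrectomized rats, against -1.22, -1.09, -1.11 and -1.0 in sham rats. The groups overlapped, and only nephrectomized rat 3 lay above every sham rat. The difference was 0.06 (SE 0.08), a 1.05-fold level with an interval of 0.921 to 1.19 (adjusted p = 0.740).

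Rptor, the adaptor that presents substrates to mTORC1, had levels of -3.15, -3.17, -3.35 and -3.03 in nephrectomized rats, against -3.03, -3.21, -3.47 and -3.69 in sham rats. Sham rats 3 and 4, both on slide 2, were the lowest of the 8, and nephrectomized rat 4 and sham rat 1 the highest, so the groups overlapped. The difference was 0.18 (SE 0.14), 1.13-fold with an interval of 0.900 to 1.42 (adjusted p = 0.581), made up of -0.04 within slide 1 and 0.39 within slide 2.

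Tsc1 (hamartin) and Tsc2 (tuberin) form the complex that switches Rheb off. Tsc1 measured -0.74, -0.66, -0.54 and -0.53 in nephrectomized rats and -0.65, -0.56, -0.72 and -0.60 in sham rats. Tsc2 measured 0.26, 0.25, 0.41 and 0.26 in nephrectomized rats and 0.32, 0.19, 0.21 and 0.28 in sham rats. The groups overlapped for both genes, and one array, nephrectomized rat 3, stood above the others for Tsc2. The difference was 0.01 (SE 0.07) for Tsc1, 1.01-fold with an interval of 0.903 to 1.13 (adjusted p = 0.945). For Tsc2 it was 0.04 (SE 0.06), 1.03-fold with an interval of 0.932 to 1.14 (adjusted p = 0.785). The second Tsc1 probe was dim, well above background in 3 of 4 nephrectomized and 3 of 4 sham rats, and did not pass the filter. Its difference without a filter was -0.02 (SE 0.17).

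Of the targets of mTORC1, neither Rps6kb1 nor Eif4ebp1 passed the test, and the 2 genes were not compared with each other. Rps6kb1, the kinase that phosphorylates ribosomal protein S6, was among the tightest measurements on the array. It had levels of 1.48, 1.52, 1.55 and 1.58 in nephrectomized rats, against 1.61, 1.57, 1.63 and 1.57 in sham rats. Only the highest nephrectomized rat reached the range of the sham rats, and the difference was -0.06 (SE 0.05), 0.960-fold with an interval of 0.883 to 1.04 (adjusted p = 0.621). Its within-group SD of 0.0356 was smaller than that of all but 0.987% of genes.

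Eif4ebp1 encodes 4E-BP1, which holds the cap-binding protein Eif4e until mTORC1 phosphorylates it. Its brighter probe had levels of 2.78, 2.93, 2.80 and 2.97 in nephrectomized rats, against 2.76, 2.40, 2.61 and 2.46 in sham rats. Every nephrectomized rat lay above every sham rat, though sham rat 1 came just below the lowest nephrectomized rat. The second probe of the gene gave 1.17, 1.14, 1.17 and 1.22 in nephrectomized rats, against 1.13, 0.72, 0.79 and 0.84 in sham rats, again without overlap and again with sham rat 1 next to the nephrectomized rats. Eif4ebp1 was the only one of the 8 genes whose groups did not overlap, a pattern that 12.6% of all genes showed.

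The difference of Eif4ebp1 was 0.31 (SE 0.09) on the brighter probe, 1.24-fold with an interval of 1.07 to 1.44 (unadjusted p = 0.00861, adjusted p = 0.116 by limma), and 0.30 (SE 0.09) on the other (adjusted p = 0.133 with every probe tested on its own). It was 0.27 within slide 1 and 0.35 within slide 2. Without sham rat 1, the array that stood apart, it was 0.38 (adjusted p = 0.0531), and with array weights the adjusted p was 0.0195. Over all 22 alternatives the difference kept its sign, ran from 0.26 to 0.38, and had an adjusted p of 0.0195 to 0.759. Some of the 22, such as the fit with no filter on dim probes, returned the main difference unchanged, so the sign could not change there. Of all genes, 13.0% had a larger difference.

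**Figure D1:**
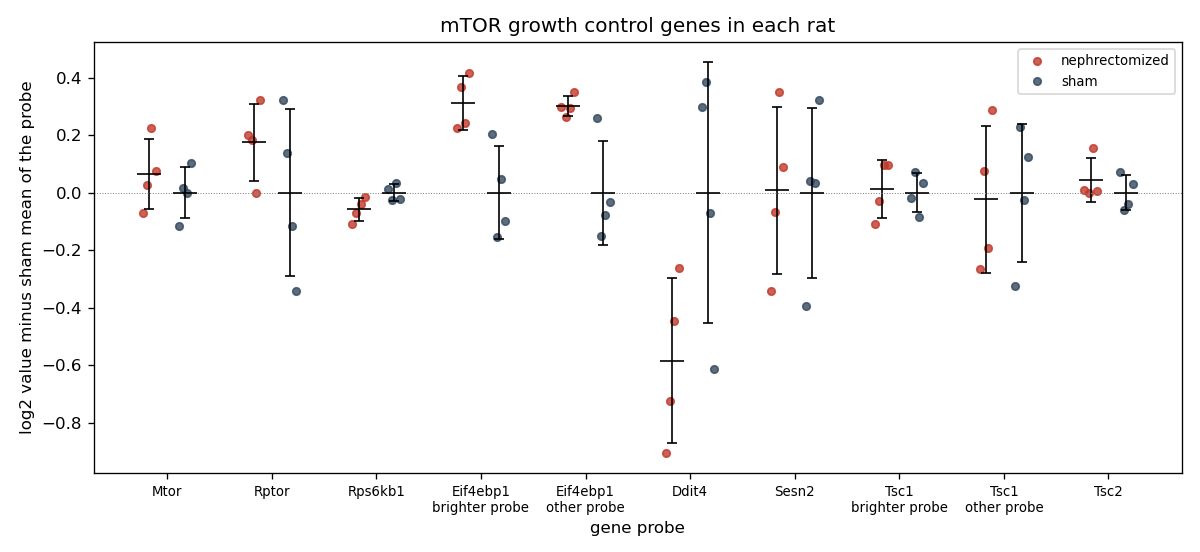
Log2 level of each of the 10 probes in each rat, minus the sham mean of that probe (vertical axis), with the nephrectomized rats left of the sham rats at each probe (horizontal axis); points are rats, and the bar and whiskers are the mean and SD of 4 rats. Both Eif4ebp1 probes have all nephrectomized rats above all sham rats, with sham rat 1 just below them, and Ddit4 has the widest spread among the sham rats.

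**Figure D2:**
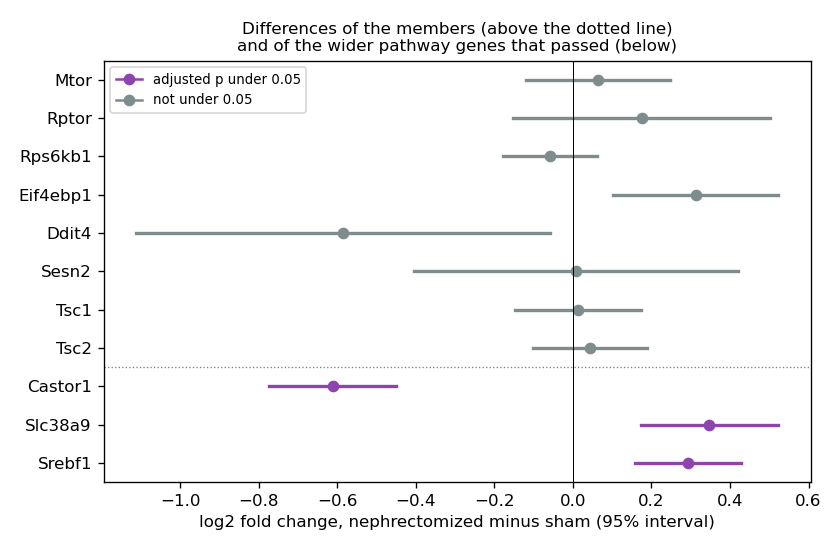
Log2 difference, nephrectomized minus sham, of the 8 measured genes and, below the dotted line, of the 3 wider pathway genes that passed the threshold; points are limma estimates and lines their 95% intervals, with purple for an adjusted p under 0.05 and grey otherwise. The intervals of Eif4ebp1 and Ddit4 leave out 0 before adjustment, on opposite sides, and those of the other 6 genes of the set contain it.

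Ddit4 and Sesn2 encode inhibitors of mTORC1 that stress induces: Ddit4 acts through the TSC complex and is a known target of the glucocorticoid receptor and of hypoxia-inducible factors, and Sesn2 is a leucine sensor induced by p53 and ATF4. Ddit4 had levels of -1.46, -1.28, -1.0 and -0.82 in nephrectomized rats, against -0.26, -0.17, -0.62 and -1.17 in sham rats. Nephrectomized rats 1 and 2 were the lowest of the 8, while sham rat 4 lay below nephrectomized rats 3 and 4, so the groups overlapped by that sham rat. The mean difference was -0.59 (SE 0.23), a 0.666-fold level with an interval of 0.462 to 0.961 (unadjusted p = 0.0335, adjusted p = 0.233 by limma). Of all genes, 4.23% had a larger difference, and 93.8% had a smaller within-group SD than the 0.38 of Ddit4.

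The difference of Ddit4 was not alike on the slides. Within slide 1 it was -1.16 (adjusted p = 0.0900), and within slide 2 it was -0.01 (adjusted p = 0.988). The change of the effect between slides was 1.15 (SE 0.26, unadjusted p = 0.00412), but with adjustment over all genes that test called no gene (adjusted p = 1.00 for Ddit4, and 551 genes with an unadjusted p under 0.05). This slide test was added after the within-slide values were seen. Slide and rat cannot be told apart here, because each slide held other rats. Without sham rat 4 the difference was -0.79 (adjusted p = 0.0766), and without sham rat 1 it was -0.49 (adjusted p = 0.333).

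Since Ddit4 is a known glucocorticoid target, its values are set beside those of other glucocorticoid-induced genes. Of 12 such genes, all measured, 6 were lower in nephrectomized than in sham rats (limma, adjusted p under 0.05), where 1.02% of all genes were called lower. The log2 differences were -0.73 for Fkbp5, -0.67 for Tsc22d3, -1.29 for Per1, -0.49 for Klf9, -0.50 for Mt1 and -0.54 for Mt2A. The day on the labels also differed between the groups, and its effect cannot be told apart from that of the operation. Fkbp5, Per1 and Tsc22d3 missed the threshold in 11, 11 and 14 of 22 alternatives, and Klf9, Mt1 and Mt2A in 2, 5 and 4. The sign was the same in each, though some of the 22, such as the fit with no filter on dim probes, returned the main difference unchanged. The median difference over the 12 was -0.53, and it was -0.54 within slide 1 and -0.51 within slide 2, with 12 and 10 of the 12 genes below 0. Relative to the sham mean, the list's mean was -0.50, -0.54, -0.77 and -0.47 in nephrectomized rats 1 to 4, against 0.13, 0.10, 0.03 and -0.26 in sham rats 1 to 4, and Ddit4 was -0.91, -0.73, -0.45 and -0.26 in nephrectomized rats, against 0.30, 0.39, -0.07 and -0.61 in sham rats. Sham rat 4, the lowest sham rat for Ddit4, was also the lowest sham rat for 9 of the 12 genes, a count made after the values were seen. The same rat had the highest red cell signal of the 8 arrays, with log2 levels of 3.39 for the globin gene Hbb and 1.61 for the heme synthesis gene Alas2. The summed linear level of these 2 erythroid markers was 2.04 to 4.85 in nephrectomized rats and 1.502 to 13.5 in sham rats, and its part in the Ddit4 values was not tested. These genes were already known to be lower in these arrays, so the list is no independent evidence about Ddit4.

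**Figure D3:**
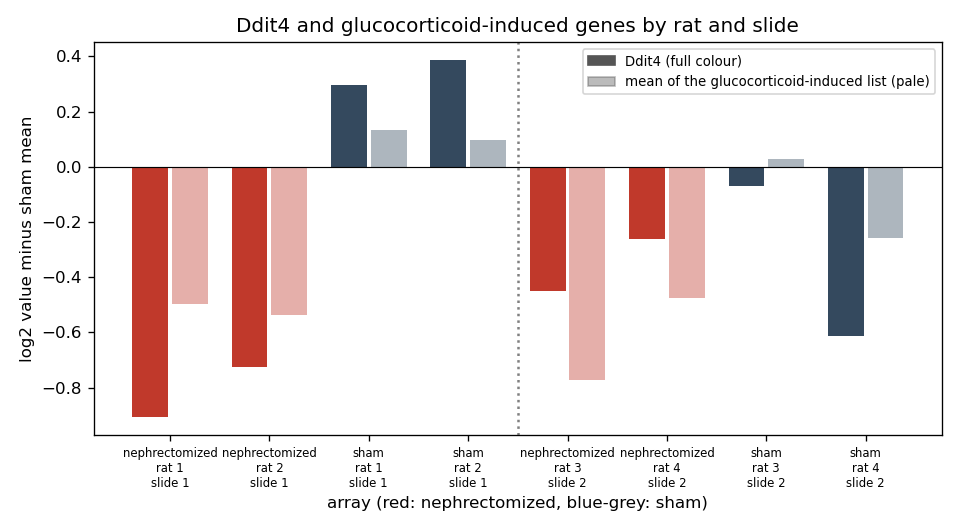
Log2 value minus the sham mean (vertical axis) of Ddit4 (full colour) and of the mean of 12 glucocorticoid-induced genes (pale) in each rat, with nephrectomized rats in red left of the sham rats in blue-grey on each slide; bars start at 0 and each is 1 array. On slide 2 the list's mean was lower in both nephrectomized rats than in both sham rats, while Ddit4 was lowest in sham rat 4.

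Sesn2 also varied widely between rats, and no difference between the groups was detectable with these arrays. Its levels were -0.57, -0.29, 0.12 and -0.14 in nephrectomized rats, against -0.62, -0.19, -0.19 and 0.10 in sham rats. Rat 1 of each group was the lowest of its group. The difference was 0.01 (SE 0.18), 1.01-fold with the wide interval of 0.755 to 1.34 (adjusted p = 0.990), and 88.1% of genes had a smaller within-group SD than its 0.29.

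Genes that share the known inducers of Sesn2 were mixed. Of 9 measured p53-induced genes, 1 fell and none rose, where 1.02% of all genes were called lower and 2.57% higher. The gene that fell was Tp53inp1, a p53-induced stress protein with a role in autophagy, with a difference of -0.61 (adjusted p = 0.00253). It measured 0.18, 0.30, 0.21 and 0.16 in nephrectomized rats, against 0.91, 0.89, 0.76 and 0.71 in sham rats, without overlap. The cell death gene Bax differed by 0.18 (adjusted p = 0.224) and the growth arrest gene Gadd45a by -0.20 (adjusted p = 0.262), and the median over the list was 0.07. Of 6 measured ATF4-induced genes none passed; the differences were 0.37 for Atf3 (adjusted p = 0.120), -0.19 for Ddit3 (adjusted p = 0.272) and 0.13 for Phgdh (adjusted p = 0.619), and the median was 0.01.

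The genes whose levels most resembled those of Ddit4, Eif4ebp1 and Rptor, the 3 members with the smallest p, were listed by Pearson correlation over the 8 arrays among genes with a symbol, as a description. For Ddit4 they were Nfkbia (0.967), the NF-kappaB inhibitor, Shank1 (0.942), Ube2j1 (0.939), Tcim (0.937) and the stress kinase Plk3 (0.934). The correlation of Ddit4 with Nfkbia was 0.947 when each value was taken relative to its group mean. Nfkbia was picked for the highest correlation among 9925 genes on these same 8 arrays, so this value is no independent evidence. Nfkbia had levels of 1.07, 1.26, 1.38 and 1.55 in nephrectomized rats, against 1.86, 2.00, 1.61 and 1.49 in sham rats, with a difference of -0.43 (adjusted p = 0.147). Like Ddit4, it was lowest among sham rats in sham rat 4, with a difference of -0.77 within slide 1 and -0.09 within slide 2. Nfkbia is also 1 of the 12 glucocorticoid-induced genes. For Eif4ebp1 the genes were C7h8orf76 (0.987), Syngr3, Borcs8, Syt5 and Pla2g10 (0.945), and none of them passed the test. For Rptor they were Mfsd14b (0.980), H2aj, Inhbb, Aktip and Chka (0.938). These points share 8 arrays and their scaling.

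The rest of the pathway was described with 9 lists by role that held 114 genes, of which 98 had a probe and 92 were measured. Of the 92, 2 rose and 1 fell, together 3.26% against the background of 3.59% of all genes. Of the 92, 17 had an unadjusted p under 0.05, where 17.7% of all genes had one. The groups did not overlap for 7 higher and 7 lower genes, where 12.6% of all genes showed no overlap (1502 higher and 1007 lower of 19865). The median log2 difference of the 92 genes was -0.05, with 36 above 0 and 56 below, against 9909 above and 9956 below among all genes. The genes that passed were 2 arginine sensors that moved in opposite directions and 1 lipogenic transcription factor.

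Castor1, the cytosolic arginine sensor that restrains GATOR2 and with it mTORC1 when arginine is low, fell. Its levels were -1.40, -1.42, -1.18 and -1.34 in nephrectomized rats, against -0.78, -0.70, -0.76 and -0.66 in sham rats, so the highest nephrectomized rat lay well below the lowest sham rat. The difference was -0.61 (SE 0.07), a 0.655-fold level (adjusted p = 0.00272). It was -0.67 within slide 1 and -0.55 within slide 2, neither past the threshold with 2 rats per group (adjusted p = 0.204 and 0.196), and it passed in the other 20 alternatives. Its relative Castor2 differed by -0.09 (adjusted p = 0.695).

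Slc38a9, the lysosomal arginine transporter and sensor that acts on the Rag GTPases, rose. Its levels were -1.80, -1.98, -1.65 and -1.85 in nephrectomized rats, against -2.21, -2.14, -2.16 and -2.17 in sham rats, without overlap. The difference was 0.35 (SE 0.08), 1.27-fold (adjusted p = 0.0478), close to the threshold. It missed the threshold in 15 of 22 alternatives, among them the fits that left out any rat except nephrectomized rat 2 (adjusted p = 0.0650 to 0.130). The sign was the same in each, though some of the 22, such as the fit with no filter on dim probes, returned the main difference unchanged. The other 21 measured genes of amino acid sensing did not pass; the difference was -0.40 for Fnip2 (adjusted p = 0.133), a partner of folliculin. The median of the 23 measured amino acid sensing genes was -0.01.

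Srebf1, the lipogenic transcription factor whose processing mTORC1 promotes, rose. It measured 2.52, 2.40, 2.56 and 2.48 in nephrectomized rats, against 2.16, 2.22, 2.16 and 2.25 in sham rats, without overlap. The difference was 0.29 (SE 0.06), 1.23-fold (adjusted p = 0.0334), and its second probe gave 0.28 (adjusted p = 0.148). It missed the threshold in 12 of 22 alternatives, again among them the fits that left out any rat except nephrectomized rat 2 (adjusted p = 0.0642 to 0.118). Among the other 7 measured transcription factors the difference was 0.28 for Srebf2 (adjusted p = 0.235), which drives sterol synthesis, and -0.20 for Atf4 (adjusted p = 0.155), the amino acid response factor.

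No gene of the other 7 lists passed. Among 6 measured complex subunits the difference was -0.28 for Prr5 (Protor-1, an mTORC2 subunit; adjusted p = 0.129), -0.12 for Tti2 (adjusted p = 0.362) and -0.08 for Mapkap1 (SIN1, which defines mTORC2; adjusted p = 0.632), with a list median of -0.10. Prr5 did not overlap between groups, at -1.05 to -0.73 in nephrectomized rats and -0.68 to -0.47 in sham rats. Next to the TSC complex, the difference was 0.32 for Rhebl1 (adjusted p = 0.258), 0.16 for Tbc1d7, the TSC complex's small subunit (adjusted p = 0.319), and 0.03 for Rheb (adjusted p = 0.929).

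Upstream, 11 of 15 measured genes of growth factor input were below 0, with a median of -0.08. Among them the difference was -0.15 for Pik3r1 (adjusted p = 0.269), a PI3K regulatory subunit, -0.28 for Irs2 (adjusted p = 0.434) and -0.13 for Igf1r (adjusted p = 0.436). The 10 measured genes of LKB1 and AMPK, the energy sensor, had a median of 0.00, and the smallest p belonged to subunit genes with differences of 0.08 (Prkab1, adjusted p = 0.516), 0.13 (Prkag2, adjusted p = 0.631) and 0.07 (Prkaa1, adjusted p = 0.644).

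Downstream, the translation list of 10 measured genes had a median of -0.02. Eif4b, a helicase cofactor that S6 kinase phosphorylates, came next to the threshold at -0.28 (adjusted p = 0.0518), with 2.81 to 2.91 in nephrectomized rats and 3.06 to 3.25 in sham rats. The difference was -0.16 for Eef2 (adjusted p = 0.294) and 0.14 for Eif4e, the partner of 4E-BP1 (adjusted p = 0.464). The autophagy and lysosome list of 12 measured genes had a median of -0.10, with -0.21 for the cargo receptor Sqstm1 (adjusted p = 0.150), -0.21 for Ulk2 (adjusted p = 0.172) and 0.12 for Becn1 (adjusted p = 0.319). Among 5 measured genes read out by mTORC2 the difference was 0.29 for Sgk2 (adjusted p = 0.0608), -0.53 for Sgk1 (adjusted p = 0.110) and -0.16 for Foxo4 (adjusted p = 0.305). Sgk1, itself glucocorticoid-induced, measured 2.76 to 3.11 in nephrectomized rats and 3.04 to 3.74 in sham rats, where the lowest was again sham rat 4.

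**Figure D4:**
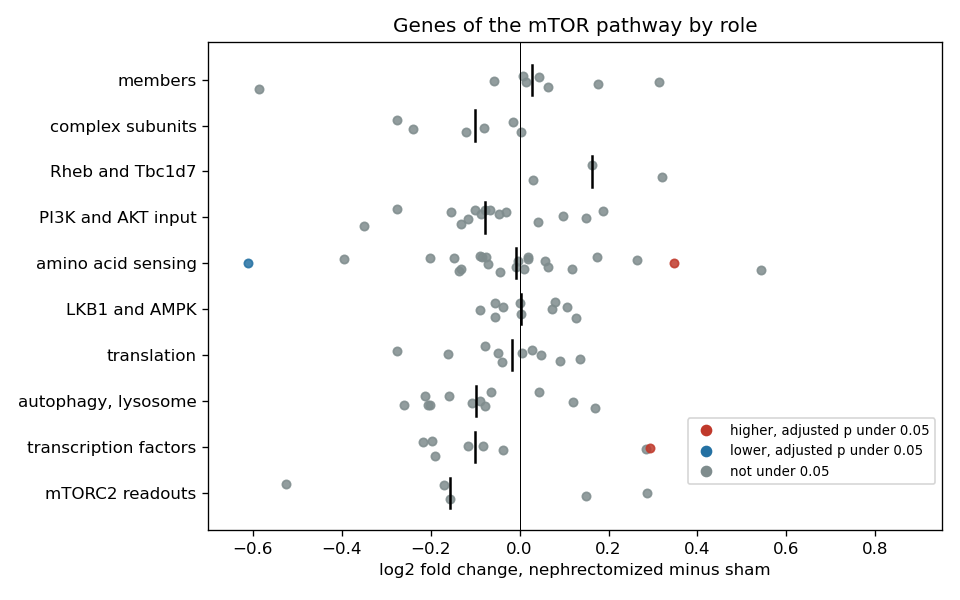
Log2 difference, nephrectomized minus sham (horizontal axis), of each measured gene of the set and of the 9 wider lists by role (rows); points are genes, black bars are list medians, and colour marks an adjusted p under 0.05. Castor1 lies lowest and Slc38a9 is coloured higher in the amino acid row, Srebf1 is coloured higher among transcription factors, and all other points are grey.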

How the data were processed

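Kidney RNA, labelled with Cy3, was read on 1-colour Agilent rat arrays (design 014879), and the authors extracted the scans with Agilent Feature Extraction 10.5.1.1, per the file headers. The deposited scanner files hold each spot's intensity on a linear scale, and the processed intensity is background-subtracted, with no scaling between arrays. A deposited table of log2 values matched the scanner values after scaling and centring of each probe (r = 0.99998 across probes) with column medians of -0.017 to 0.015, and served as an alternative.

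From the scanner files, control and outlier spots were removed, log2 processed intensity was averaged over a probe's spots, and the array's 75th percentile was subtracted. The filter kept 23982 of 41012 probes, those well above background in all 4 rats of either group. Symbols came from RefSeq accessions (GRCr8), which named 18713 probes, and the brightest probe stood for a gene. An accession without a symbol was kept as a gene of its own. The test was limma 3.58.1 (R 4.3.3), two-sided, without covariates, at an adjusted p of 0.05, checked on simulated data. Named genes are all members, every wider pathway gene that passed, and the smallest p of each list up to 3. The members and lists were chosen with earlier results of these data known. Replicate numbers did not pair the rats: same-numbered rats' deviations from their group means correlated at -0.018 to 0.10.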

Additional observations from a re-analysis of the deposited data

Results flagged for a closer look

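Tsc2 in nephrectomized rats was singled out because 1 rat lay far from the others. Nephrectomized rat 3 had a log2 level of 0.41 against 0.25 to 0.26 in the other 3 nephrectomized rats, and the gap took up 0.934 of the group's range, above Dixon's critical value for a group of 4. Chance alone would single out about 1 in 20 groups, and 20 groups were examined. Without that rat the difference of Tsc2, nephrectomized minus sham, was 0.01 (adjusted p = 0.970 by limma).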

How the results depend on the processing

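Of the 8 measured genes, Mtor, Rps6kb1, Eif4ebp1 and Ddit4 kept their sign in all 22 alternatives, Rptor and Tsc2 in 21, Tsc1 in 18 and Sesn2 in 16. None of these changes of sign was of a called value. Several alternatives could not change the sign, because they returned the main difference of each of these genes. They were the fits with another filter, with every probe on its own, with an intensity trend, and with slide or replicate number as a block. The count of the 8 that were called was 0 in the main comparison, 0 with each rat left out in turn (lowest 0, highest 0) and 1 with array weights (Eif4ebp1). The 714 genes called in all became 282 with no filter on dim probes, which tests more genes, 2157 with array weights, 0 within slide 1 and 141 within slide 2, each with 2 rats per group (1632 and 2464 genes with an unadjusted p under 0.05), and 341 to 666 with 1 rat left out, fewest without nephrectomized rat 4 (341) and sham rat 3 (342). The 3 wider pathway genes called became 1 with no filter, 9 with array weights, 0 within slide 1, 0 within slide 2 and 1 to 3 with 1 rat left out. It was 1 without nephrectomized rats 1, 3 or 4 or sham rats 2 or 3, and 2 without sham rats 1 or 4. With the replicate number as a block, 296 genes in all and 1 wider pathway gene were called (Castor1, adjusted p = 0.0337), and 2 of 8 arrays correlated best with the array of the same number, so the numbers were not taken to pair the rats. The cause of the other changes was not tested. Normexp was run on the median spot signal. Brightness limits the second Tsc1 probe, which was not well above background in 1 rat of each group, while the other 9 probes were on all 8 arrays. The dimmest of these 9 was the Rptor probe, at log2 levels of -3.69 to -3.03. With normexp and quantile normalization the Rptor difference was 0.04, against 0.18 in the main comparison.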

Other observations

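Sesn3, the relative of Sesn2 that FoxO factors induce, was among the largest differences in the amino acid sensing list, and it is named here after its values were seen. It measured 1.66, 1.87, 1.69 and 2.06 in nephrectomized rats, against 1.79, 1.23, 0.99 and 1.09 in sham rats, and sham rat 1 was the sham rat that overlapped with the nephrectomized rats. The difference was 0.54 (SE 0.18, adjusted p = 0.150 by limma), and its second probe gave 0.33 (adjusted p = 0.176 with every probe tested on its own). Eif4b, the helicase cofactor, was lower on each of its 4 probes, with differences of -0.28, -0.22, -0.16 and -0.15, none past the threshold (adjusted p = 0.0570 to 0.362). The SGK kinases, relatives of AKT that mTORC2 activates, had differences of opposite sign, -0.53 for Sgk1 and 0.29 for Sgk2, neither past the threshold. The second Sgk2 probe gave 0.14 (adjusted p = 0.668).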
